A study of Mus musculus with 6 samples.

Results

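Genes of bile acid synthesis, transport and FGF15 reception were followed in the liver of mice that had a vertical sleeve gastrectomy (VSG, in which the greater part of the stomach is cut away) or a sham operation. They were taken by name and found through GENCODE M21 symbols: Cyp7a1, Cyp8b1, Cyp27a1, Cyp7b1, Baat, Slc10a1, Abcb11, Abcb4, Fgfr4 and Klb, 10 of the 55385 genes counted. All 10 had enough reads to be tested, among 14454 genes tested. Poly(A) RNA came from the livers of 3 sham-operated and 3 VSG-operated male mice, wild-type C57BL/6 per the study's methods. All animals of both groups were put on a high-fat diet at 6 to 8 weeks of age, ate it for 10 weeks before the operation and stayed on it for 12 weeks after it. There was no unoperated or lean group in these libraries, and the hour and feeding state at collection were not given in the sources used here.

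The liver makes bile acids from cholesterol by a classic route, which starts with Cyp7a1, and an alternative route, which starts with Cyp27a1 and goes on through Cyp7b1. Cyp8b1 decides how much of the product is cholic acid, and Baat joins bile acids to taurine or glycine. Slc10a1 takes bile acids up from the blood, Abcb11 pumps them into bile and Abcb4 moves phospholipid to the bile side. Bile acids in the gut make the ileum release FGF15, which acts on hepatocytes through the receptor Fgfr4 and its partner Klb and is known to repress Cyp7a1.

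Fgfr4 was the 1 gene of the 10 whose change passed the threshold, an adjusted p under 0.05 by edgeR's quasi-likelihood test over all genes tested, and it was 2.17-fold higher after VSG. Cyp7a1 and Cyp8b1 were 3.14-fold and 4.69-fold lower and Cyp7b1 was 4.08-fold higher on average, but none of these passed, and the libraries of a group differed widely. The ratio of Cyp7b1 to Cyp7a1 reads was steadier than either gene, lying between 0.137 and 0.188 in sham and between 1.52 and 2.603 in VSG livers. Of all genes tested, 14.7% passed the threshold, with 6.79% higher and 7.87% lower, so 1 of these 10 is no more than the background. Calls over all genes were 46.3% higher and 53.7% lower. Scaling to total counts, which moves the median log2 fold change by -0.14, made 24.3% of the calls higher. Unadjusted p-values were under 0.05 for 4 of the 10 genes, against 33.9% of all genes, and DESeq2 passed 4 of the 10, against 22.8%.

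Total counts per library ran from 22804397 to 24191778. Levels are CPM, gene counts relative to the total count of the library after TMM scaling, and group values are mean ± SD over 3 libraries. Of 10 hepatocyte markers 0 passed with edgeR or limma, 3 had an unadjusted p under 0.05 and 3 passed with DESeq2, Tf (transferrin) as higher and Ttr and Ass1 as lower. Their summed level was 93320 to 142800 CPM in sham and 112700 to 143900 CPM in VSG livers. Without Tf it was 78950 to 125200 CPM in sham livers and 61560, 97370 and 96710 CPM in VSG replicates 4 to 6, the first of them below every sham library. Alb, the serum albumin gene, was between 35830 and 81830 CPM in every library. All 15 acute phase genes and all 10 neutrophil markers passed as higher after VSG with edgeR and DESeq2, where limma-voom passed 14 and 4 of them and limma on log2(FPKM + 1) passed 12 and 8. Of the neutrophil markers 3 had under 10 counts in every sham library, and Mpo, Ltf, Ngp, Camp and Mmp8 had under 10 in at least 1. These genes were tested on the strength of the VSG livers, so how many neutrophil markers passed is not read as a result. The summed level was 18890 to 20850 CPM in sham and 67500 to 138700 CPM in VSG livers for the acute phase list, and 2.70 to 14.7 against 150.4 to 1842 CPM for neutrophil markers, in each case highest in VSG replicate 4. Of the macrophage list 4 of 8 were higher (256.2 to 496.5 against 567.2 to 1670 CPM), and of the stellate cell list 2 of 8 were lower (651.4 to 811.3 against 348.7 to 549.2 CPM). All 8 stellate cell markers had negative log2 fold changes (median -0.76), 6 had an unadjusted p under 0.05 and 5 passed with DESeq2. The endothelial list (293.3 to 354.6 against 305.4 to 373.0 CPM) and the lymphocyte list (6.90 to 7.26 against 6.03 to 13.6 CPM), of 7 genes each, had 0 calls with edgeR, DESeq2 or limma and 1 and 0 genes with an unadjusted p under 0.05. The bile duct list, at 70.7 to 282.5 CPM in sham and 85.1 to 207.5 CPM in VSG livers, had 1 of 7 tested genes higher with edgeR, Sox9, and 0 with limma-voom or limma on log2(FPKM + 1). The other 6 had negative log2 fold changes (list median -0.80) and did not pass, Pkhd1 passing as lower with DESeq2 (adjusted p 0.0423). Of 10 intestinal or pancreatic markers 7 were too low to test and 1, Fabp2, was lower (summed level 139.0 to 177.0 against 33.3 to 66.8 CPM). In bulk liver, fewer cells of a type and less RNA per cell cannot be told apart.

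Promoter sequence from RefSeq (GRCm38.p6, 250 bases before to 50 after the start) was found for 7 of the 10 genes. Those of Cyp8b1, Abcb11 and Fgfr4 are shown. That of Cyp8b1 holds a binding core of LRH-1 beside its TATA box. Abcb11 is the gene of the pump that the bile acid receptor FXR is known to switch on. Fgfr4 is the gene of the 10 that passed the threshold with edgeR. The promoters shown lie at chr9:121916256-121916555, chr2:69342567-69342866 (both minus strand) and chr13:55152568-55152867 (plus strand), and capitals mark the motifs found.
Cyp8b1: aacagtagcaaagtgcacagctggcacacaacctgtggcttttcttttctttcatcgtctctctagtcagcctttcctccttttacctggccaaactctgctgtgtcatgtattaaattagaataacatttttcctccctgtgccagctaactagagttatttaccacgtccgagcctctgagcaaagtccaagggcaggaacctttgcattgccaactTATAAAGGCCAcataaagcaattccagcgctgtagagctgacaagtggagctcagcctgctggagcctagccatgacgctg
Abcb11: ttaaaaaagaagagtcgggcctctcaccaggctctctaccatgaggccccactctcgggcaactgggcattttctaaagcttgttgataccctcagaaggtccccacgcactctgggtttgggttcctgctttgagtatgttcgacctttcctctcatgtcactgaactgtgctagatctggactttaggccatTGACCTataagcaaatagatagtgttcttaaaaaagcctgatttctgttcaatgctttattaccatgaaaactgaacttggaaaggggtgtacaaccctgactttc
Fgfr4: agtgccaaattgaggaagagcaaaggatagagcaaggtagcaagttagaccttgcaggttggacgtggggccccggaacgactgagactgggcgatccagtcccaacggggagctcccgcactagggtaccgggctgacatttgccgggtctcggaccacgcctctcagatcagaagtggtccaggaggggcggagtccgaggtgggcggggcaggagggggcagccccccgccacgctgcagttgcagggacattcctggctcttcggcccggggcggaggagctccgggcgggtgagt
In Cyp8b1 a TATA box (TATAAA, in 13.6% of 32851 promoters of this length) shares 2 bases with an LRH-1 core (AAGGTCA or AAGGCCA, in 10.6%), and these begin at -31 and -27 from the start. In Abcb11 the reverse of a nuclear receptor half-site (AGGTCA, in 16.3%) begins at -56. Slc10a1, with 2 promoters listed, held a STAT motif (TTCNNNGAA, in 8.30%) and a reversed TATA box in one and the half-site in the other. The FXR inverted repeat, which is that half-site and its reverse complement with 1 base between (in 0.00913%), the HNF1 half-site GTTAAT (7.10%) and the E-box CACGTG (7.15%) matched in none of the 8 promoters, and no motif searched matched in Fgfr4, Cyp27a1, Abcb4 or Klb. All were searched on both strands, and a match or its absence here concerns the letters alone.

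**Figure D1:**
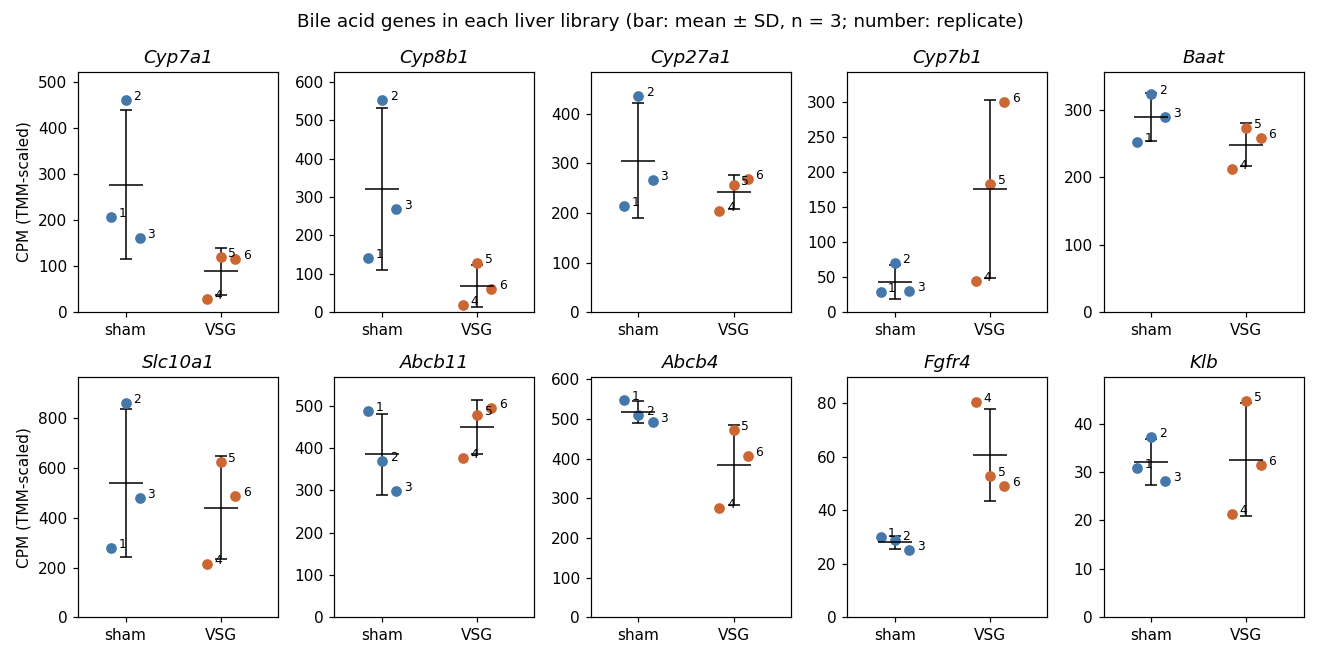
CPM of the 10 genes in each library, on linear axes from 0, with sham in blue and VSG in orange, the replicate number beside each point and bars for mean ± SD (n = 3). The groups do not overlap for Cyp7a1, Cyp8b1, Abcb4 and Fgfr4, and VSG replicate 4 is the lowest VSG library for 9 of the 10 genes.

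Cyp7a1, the rate-limiting enzyme of the classic route (chromosome 4, 6265612 to 6275633, minus strand, GRCm38, 6 exon blocks), was at 207.7, 461.8 and 161.9 CPM in sham replicates 1 to 3 and at 29.2, 120.5 and 115.3 CPM in VSG replicates 4 to 6. Every VSG library was below every sham library, with sham replicate 2 far above its group and VSG replicate 4 far below. Group means were 277 ± 162 and 88.4 ± 51.3 CPM (-1.65 on the log2 scale with an SE of 0.609, adjusted p 0.110). Read with DESeq2, the tool of the study's methods, the adjusted p was 0.0188 at a log2 fold change of -1.65. Leaving out sham replicate 2 gave -1.07 (adjusted p 0.277), and no edgeR fit that leaves out 1 library passed. Without sham replicate 2 and VSG replicate 4 together, a fit chosen after seeing the data, the log2 fold change was -0.65 (adjusted p 0.0767).

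Cyp8b1, the sterol hydroxylase needed for cholic acid (chromosome 9, 121914356 to 121916305, minus strand, 1 exon block), was at 142.1, 553.1 and 269.5 CPM in the sham livers. After VSG it was at 17.6, 127.6 and 60.3 CPM. The groups did not overlap, and the order of libraries had the same extremes as Cyp7a1 at the bottom (VSG replicate 4) and the top (sham replicate 2). The log2 fold change of -2.23 (SE 0.769) had an adjusted p of 0.0952 by edgeR and 0.0448 by DESeq2. It was also under 0.05 without VSG replicate 5 (-3.06, adjusted p 0.0444) and without a low-count filter (0.0443). Leaving out sham replicate 2 gave -1.59 (adjusted p 0.229), and the 5 fits other than that without VSG replicate 5 did not pass (adjusted p up to 0.236). It was -1.13 without sham replicate 2 and VSG replicate 4.

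Cyp7b1, the hydroxylase of the alternative route (chromosome 3, 18071950 to 18243338, minus strand, 6 exon blocks), differed in the other direction. It was at 28.4, 70.7 and 30.5 CPM in sham and at 45.1, 183.1 and 300.3 CPM in VSG livers. VSG replicates 5 and 6 were above all sham libraries, whereas VSG replicate 4 was below sham replicate 2, so the groups overlapped. The log2 fold change was 2.03 (SE 0.690, adjusted p 0.0923), with an adjusted p of 0.00769 by DESeq2, 0.0324 without VSG replicate 4 (log2 fold change 2.49) and 0.0467 without a low-count filter. Leaving out VSG replicate 6 gave 1.40 (adjusted p 0.249), and the fits that each leave out 1 library gave 1.40 to 2.58, with adjusted p as high as 0.259. Without sham replicate 2 and VSG replicate 4 it was 3.04 (adjusted p 0.0135).

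Cyp7b1 is known as a male-biased gene of mouse liver, so the sex-biased lists are given beside it. The summed level of 10 other male-biased genes was 1431 to 1535 CPM in sham livers. In VSG replicates 4 to 6 it was 5067, 8959 and 8619 CPM. Of these 10 genes, 2 passed as higher (Serpina1e and C8b, a protease inhibitor and a complement component), where 6.79% of all genes did. Their log2 fold changes were positive for 8 and negative for 2. Slco1a1, a bile acid uptake carrier of that list and of the transport list, was at 2.70, 54.7 and 2.28 CPM in sham and at 6.24, 197.5 and 161.9 CPM in VSG livers (adjusted p 0.266), again lowest of the VSG libraries in replicate 4. It is singled out here after its values were seen. Of 10 female-biased genes 5 had enough reads to be tested, and their summed level was 158.4 to 485.5 CPM in sham and 2.67 to 5.26 CPM in VSG livers. With under 10 counts in every VSG library, 3 of these 5 entered the test through the sham livers alone, so how many passed is not read as a result. Their part in the level of Cyp7b1 was not tested.

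Cyp27a1, the mitochondrial hydroxylase that opens the alternative route (chromosome 1, 74713574 to 74737892, plus strand), was at 214.0, 436.1 and 266.2 CPM in sham and at 204.3, 256.0 and 268.1 CPM in VSG livers. The groups overlapped and differed by less than the spread between libraries (-0.33 on the log2 scale with an SE of 0.274, adjusted p 0.423), and without sham replicate 2 the log2 fold change was 0.012. Baat (chromosome 4, 49489422 to 49506557, minus strand) was among the steadiest of the 10, at 252.9, 324.1 and 290.5 CPM in sham and 213.0, 274.0 and 258.5 CPM after VSG (-0.22 on the log2 scale with an SE of 0.155, adjusted p 0.351).

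Of the transporters, 0 of 3 passed the threshold with edgeR, DESeq2 or limma, and 0 had an unadjusted p under 0.05. Slc10a1, the sodium-dependent uptake carrier NTCP (chromosome 12, 80953183 to 80968705, minus strand), was at 277.4, 861.1 and 481.1 CPM in sham and at 214.2, 622.5 and 486.9 CPM in VSG livers. The spread within either group, 3.10-fold in sham and 2.91-fold in VSG, exceeded the difference between them (-0.29 on the log2 scale with an SE of 0.507, adjusted p 0.710). Leaving out sham replicate 2 turned the sign (0.21), as did leaving out VSG replicate 4 (0.040) or the pair of them (0.55). Abcb11, the bile salt export pump (chromosome 2, 69238282 to 69342616, minus strand), was at 487.5, 368.4 and 298.3 CPM in sham and at 375.5, 478.4 and 494.3 CPM in VSG livers, and these overlapped (0.22 on the log2 scale with an SE of 0.216, adjusted p 0.491). Its exons overlap 2 genes of M21. Gm13613, on the other strand, had 2 counts in all libraries, and the other gene was not examined.

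Abcb4, the phospholipid floppase (chromosome 5, 8893717 to 8959231, plus strand), was at 546.6, 509.6 and 492.6 CPM in sham and at 274.9, 470.8 and 405.9 CPM in VSG livers. All VSG libraries were below all sham libraries, VSG replicate 5 only narrowly. The log2 fold change was -0.43 (SE 0.212, adjusted p 0.204). In all, 4 of the 10 genes did not overlap between groups, against 39.7% of the genes tested, and 3 of them were lower and 1 higher, against 19.8% in each direction, which puts these counts close to the background.

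Fgfr4, the receptor of FGF15 on hepatocytes (chromosome 13, 55152640 to 55168759, plus strand, 19 exon blocks), was at 29.9, 29.0 and 25.1 CPM in sham and at 80.2, 52.7 and 48.9 CPM in VSG livers. The sham libraries lay within 1.19-fold of each other and every VSG library was above them, VSG replicate 4 most. Fgfr4 rose from 27.98 ± 2.53 to 60.6 ± 17.1 CPM (1.11 on the log2 scale with an SE of 0.201, adjusted p 0.0200, and 3.4e-05 by DESeq2), in 3 of 3 VSG livers. The log2 fold change stayed between 0.86 and 1.25 over 15 alternatives. The call was lost when sham replicate 2 (adjusted p 0.0585), sham replicate 3 (0.0989) or VSG replicate 6 (0.0542) was left out.

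Klb, the beta-Klotho partner that FGF15 needs to bind its receptor (chromosome 5, 65348314 to 65384007, plus strand), was at 30.8, 37.3 and 28.1 CPM in sham and at 21.4, 44.7 and 31.4 CPM in VSG livers. The VSG livers spanned the sham range on both sides, VSG replicate 4 being lowest (0.021 on the log2 scale with an SE of 0.262, adjusted p 0.962). The sign of that value turned under 7 of 15 alternatives, among them scaling to total counts (-0.10). Fgf15 itself had 0 counts in 5 libraries and 1 in VSG replicate 5, where 0 counts allow up to 3 counts in a library.

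**Figure D2:**
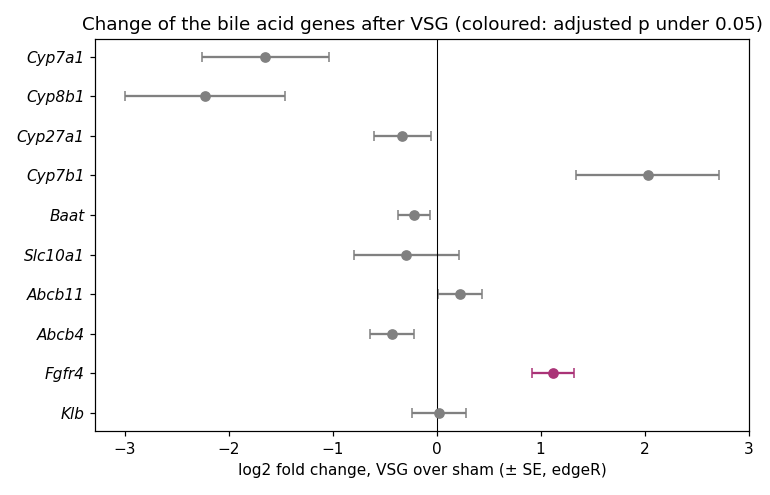
Log2 fold change of each gene, VSG over sham, with its standard error (edgeR, n = 3 per group). Fgfr4, in colour, is the gene with an adjusted p under 0.05, and Cyp8b1 (-2.23) and Cyp7b1 (2.03) have the largest values in either direction with standard errors of 0.769 and 0.690.

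Because the widest swings came from the same libraries, ratios of 2 genes within a library, which need no scaling between libraries, were compared for 6 pairs. Reads of Cyp7b1 per read of Cyp7a1 were 0.137, 0.153 and 0.188 in sham and 1.54, 1.52 and 2.603 in VSG livers, an 11.6-fold difference (3.53 on the log2 scale, from -2.66 ± 0.234 to 0.87 ± 0.442). Cyp7a1 reads outnumbered Cyp7b1 reads in every sham liver and Cyp7b1 reads outnumbered Cyp7a1 reads in every VSG liver. The exact two-sided permutation p was 0.1, the smallest that 3 against 3 libraries allow, and 0.15 adjusted over the 6 pairs. Leaving out any 1 library kept the difference between 3.28 and 3.67 on the log2 scale. Cyp7a1 has the longer transcript model, and per length the mean level of Cyp7a1 was 66.4 ± 38.7 FPKM in sham and 21.2 ± 12.3 FPKM in VSG livers, and that of Cyp7b1 was 19.9 ± 11.0 and 81.3 ± 59.0 FPKM.

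The ratios of 3 more pairs also separated the groups, each at an exact permutation p of 0.1 (0.15 adjusted). Klb per Fgfr4 read was 1.03, 1.29 and 1.12 in sham and 0.267, 0.849 and 0.642 in VSG livers, lowest in VSG replicate 4, without which the log2 difference was -0.63 in place of -1.12. Abcb4 per Abcb11 read, phospholipid against bile salt export, was 1.12, 1.38 and 1.65 in sham and 0.732, 0.984 and 0.821 in VSG livers. Cyp27a1 per Cyp7b1 read was 7.54, 6.17 and 8.74 in sham and 4.53, 1.40 and 0.893 in VSG livers, a log2 difference of -2.06 that ran from -2.73 to -1.56 when 1 library was left out. Cyp8b1 to Cyp7a1 (difference -0.68 on the log2 scale, exact permutation p 0.2) and Slc10a1 to Abcb11 (-0.52, exact permutation p 0.5) overlapped between groups. Among all pairs of the 13029 genes with at least 10 counts in every library, 38.9% did not overlap. Beside that share, 4 of 6 is a count over few pairs. The sizes above are descriptive, as no pair had an adjusted permutation p under 0.15 and the sizes of other pairs were not compared. Cyp7b1, Cyp7a1 and Abcb11 each entered more than 1 pair.

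**Figure D3:**
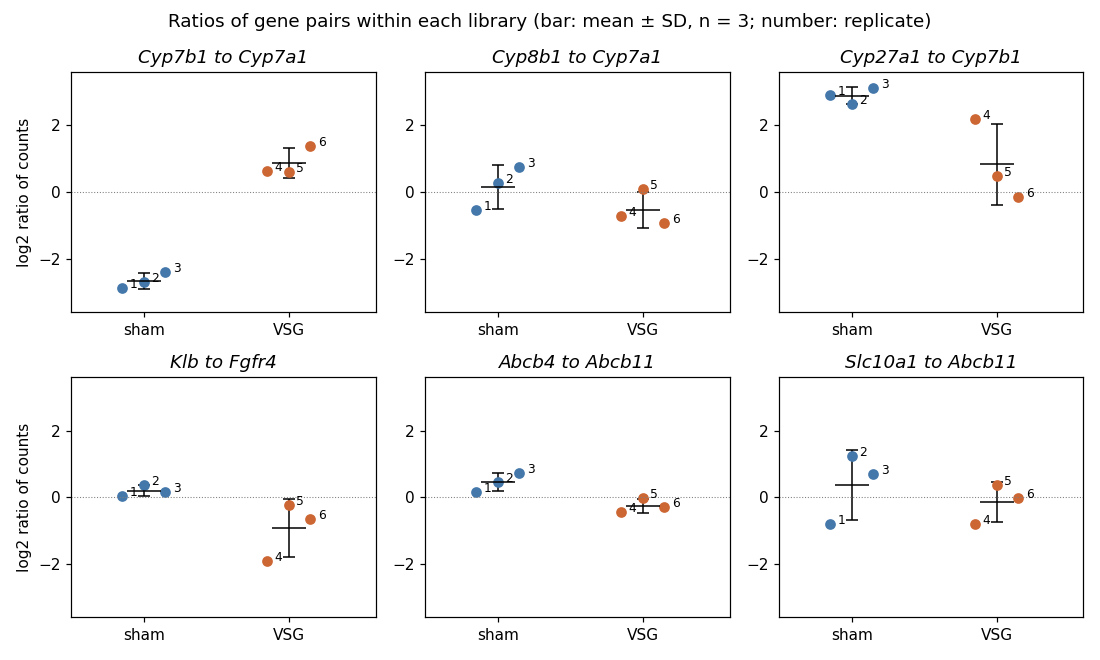
Log2 ratio of read counts of 6 gene pairs in each library, with the replicate number beside each point, bars for mean ± SD (n = 3) and a dotted line where both genes have equal counts. Cyp7b1 to Cyp7a1 lies between -2.87 and -2.41 in sham and between 0.60 and 1.38 in VSG livers.

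The spread within groups followed particular libraries. Sham replicate 2 was the highest sham library for 7 of the 10 genes and the lowest for 0, against 40.8% and 36.5% of all genes tested. VSG replicate 4 was the lowest VSG library for 9 of the 10, and the highest for 1, Fgfr4, against 36.1% and 39.1% of all genes tested. In the pericentral hepatocyte list, genes of the zone around the central vein where Cyp7a1 is known to be high, 0 of 8 passed with edgeR, DESeq2 or limma and 0 had an unadjusted p under 0.05. Its summed level was 7180, 17630 and 10510 CPM in sham and 5286, 12610 and 12200 CPM in VSG livers, again highest in sham replicate 2 and lowest in VSG replicate 4, and gene by gene these were the highest sham library for 7 of the 8 and the lowest VSG library for 8 of the 8. The periportal list (of 8 genes, 0 passed with edgeR or limma, 2 with DESeq2 and 2 at an unadjusted p under 0.05) summed to 4244, 6113 and 3988 CPM in sham and 2683, 4333 and 4034 CPM in VSG livers, a sum in which Pck1 alone made up 3835 CPM of sham replicate 2. Gene by gene, sham replicate 2 was the highest sham library for 3 of the 8 and the lowest for 4, and VSG replicate 4 was the lowest VSG library for 3 and the highest for 3. Cyp7a1 follows a daily rhythm, and of 16 core clock and clock output genes 1 passed with edgeR, Clock, higher after VSG, with a list median log2 fold change of -0.25. Of the 16, 7 had an unadjusted p under 0.05 (33.9% of all genes did) and 7 did not overlap between groups (39.7% of all genes). DESeq2 passed 6 (22.8% of all genes), Arntl, Clock, Nr1d1 and Nfil3 as higher and Per2 and Ciart as lower. The summed level of the list was 828.4 to 984.6 CPM in sham and 564.4, 1017 and 784.2 CPM in VSG livers. Over these 16 genes, VSG replicate 4 was the lowest VSG library for 11 and the highest for 4. Sham replicate 2 was the highest sham library for 8 of them and the lowest for 4. The part of zonation, clock, acute phase and neutrophil genes in the members' levels was not tested.

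**Figure D4:**
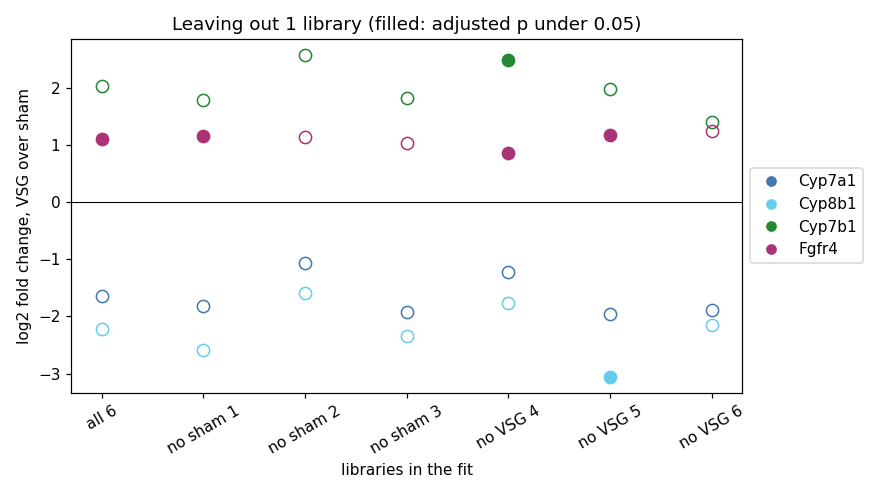
Log2 fold changes of Cyp7a1, Cyp8b1, Cyp7b1 and Fgfr4 with all 6 libraries and after leaving out each one, filled where the edgeR adjusted p is under 0.05. All 4 genes keep their direction, Cyp7a1 between -1.95 and -1.07, Cyp8b1 between -3.06 and -1.59, Cyp7b1 between 1.40 and 2.58 and Fgfr4 between 0.86 and 1.25, and few points are filled.

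Ordered by FPKM, CPM divided by the exon length in kilobases, Slc10a1 led in sham livers (245.5 ± 134.7), before Cyp8b1, Baat, Cyp27a1, Abcb11, Cyp7a1, Abcb4, Cyp7b1 (19.9 ± 11.0), Fgfr4 (7.90 ± 0.714) and Klb (7.05 ± 1.04). Neighbours overlapped in range except Cyp27a1 above Abcb11, Abcb4 above Cyp7b1 and Cyp7b1 above Fgfr4. In VSG livers the order was Slc10a1 (200.6 ± 94.6), Baat, Cyp27a1, Abcb11, Cyp7b1, Abcb4, Cyp8b1, Cyp7a1, Fgfr4 (17.1 ± 4.83) and Klb (7.15 ± 2.57), and Fgfr4 above Klb was the only pair of neighbours that did not overlap. Cyp8b1 thus stood in the second place in sham and the seventh in VSG livers, and Cyp7b1 in the eighth and the fifth. The genes whose centred log2 CPM lay nearest to Cyp7a1 over the 6 libraries, among 9964 genes with a mean of at least 5 CPM, were Ciart, Kcnk5 and AC102159.1 (root mean square difference 0.328, 0.329 and 0.342). Cyp8b1, the nearest of the other members, ranked at 75 (0.592).

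Among 80 other genes of the pathway, 79 were found, 73 were tested and 15 passed the threshold (20.5%, where 14.7% of all genes did), 5 higher and 10 lower, with a median log2 fold change of -0.14 against 0.028 over all genes. In synthesis, 3 of 18 tested genes passed (16.7%), all lower, with a median of -0.37. Akr1d1, the reductase that shapes the bile acid ring, fell from 223.8 ± 74.6 to 80.8 ± 27.7 CPM (-1.47 on the log2 scale with an SE of 0.336, adjusted p 0.0341). Cyp2a12, known to rehydroxylate bile acids in mice, fell by 0.999 on the log2 scale (0.0325), and Cyp3a11, a broad drug and bile acid hydroxylase, fell from 1798 ± 327 to 263.3 ± 190.2 CPM (-2.77, 0.0216). Each of these calls was lost when sham replicate 2 or 3 or VSG replicate 6 was left out, that of Akr1d1 also without VSG replicate 4 and that of Cyp2a12 also without sham replicate 1, where adjusted p ran from 0.0531 to 0.120. Leaving out VSG replicate 5 made the log2 fold change of Cyp3a11 -3.56.

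In transport, 1 of 19 tested genes rose and 4 fell (26.3% passing, where 14.7% of all genes did). The falls were those of Abcb1a, a drug efflux pump (21.96 ± 2.46 to 3.07 ± 0.953 CPM, -2.84 on the log2 scale with an SE of 0.230, adjusted p 0.00273), Slco1a4, an uptake carrier (-2.54, 0.0243), Abcc3, which exports bile acids back to the blood (557.5 ± 100.6 to 178.9 ± 21.9 CPM, -1.64, SE 0.185, 0.00725), and Ephx1, an epoxide hydrolase (-1.32, 0.00809). Abcb1a and Abcc3 stayed past the threshold in all 15 alternatives. Atp8b1, a phospholipid flippase of the bile canaliculus, rose from 43.5 ± 8.49 to 97.7 ± 4.41 CPM (1.17 on the log2 scale with an SE of 0.148, adjusted p 0.00934). The calls of Atp8b1 (0.0568 and 0.0524) and Ephx1 (0.0519 and 0.0542) were lost without sham replicate 3 or VSG replicate 6, and that of Slco1a4 there and without sham replicate 2 (0.0667 to 0.0976). Without VSG replicate 5 the value of Slco1a4 was -3.24. Slco1b2, a main sodium-independent uptake carrier, was at 1503 ± 374 and 1145 ± 433 CPM (adjusted p 0.448), and Slc51b, an exporter to the blood, was at 1.23 ± 0.797 and 0.575 ± 0.370 CPM (0.256).

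Among nuclear receptors and regulators, 2 of 17 rose and 2 fell (23.5% passing, where 14.7% of all genes did). Nr5a2, which encodes LRH-1, a known activator of Cyp8b1 and Cyp7a1, rose from 77.1 ± 10.4 to 124.2 ± 18.5 CPM (0.69 on the log2 scale with an SE of 0.154, adjusted p 0.0332). Nr1h4, the bile acid receptor FXR, was at 182.6 ± 49.0 and 132.5 ± 32.4 CPM (-0.46, 0.238), and its target Nr0b2, the repressor SHP, was at 22.8 ± 5.99 and 17.3 ± 3.11 CPM (-0.40, 0.243). Nr1i2, the xenobiotic receptor PXR, fell by 0.88 on the log2 scale (adjusted p 0.0322), Ppargc1a, a coactivator, fell by 0.79 (0.0371), and Onecut1, a hepatocyte transcription factor, rose by 2.40 (0.0341). These 4 calls each held without at most 2 of the 6 libraries. Onecut1 kept its call only without VSG replicate 6 and Nr5a2 only without sham replicate 2 or VSG replicate 5, while Nr1i2 and Ppargc1a kept theirs only without sham replicate 1 or VSG replicate 5. Adjusted p-values in the other fits ran up to 0.139. With all 6 libraries, Onecut1 did not pass with limma-voom (0.0890) or limma on log2(FPKM + 1) (0.0669).

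Of the FGF15 and bile acid receptor signalling list, 2 of 19 tested genes rose and 1 fell. That is 15.8% passing, close to the 14.7% of all genes. Fgfr1, a sister receptor of Fgfr4, rose from 9.59 ± 4.001 to 35.7 ± 3.37 CPM (1.89 on the log2 scale with an SE of 0.295, adjusted p 0.0149), and Frs2, the adaptor that FGF receptors phosphorylate, rose from 35.1 ± 0.906 to 44.4 ± 0.970 CPM (0.34, SE 0.0779, 0.0345). Dusp6, a phosphatase that ERK signalling is known to induce, fell from 73.8 ± 5.45 to 32.1 ± 7.53 CPM (-1.20, SE 0.173, 0.0121). Fgfr1 (0.0818 and 0.0602) and Dusp6 (0.0655 and 0.0649) lost the call without sham replicate 3 or VSG replicate 6, and Frs2 lost it whichever library was left out (0.0548 to 0.146). With all 6 libraries Frs2 did not pass with total counts (0.20 on the log2 scale, adjusted p 0.294), without a low-count filter (0.131) or with limma on log2(FPKM + 1) (0.0512).

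**Figure D5:**
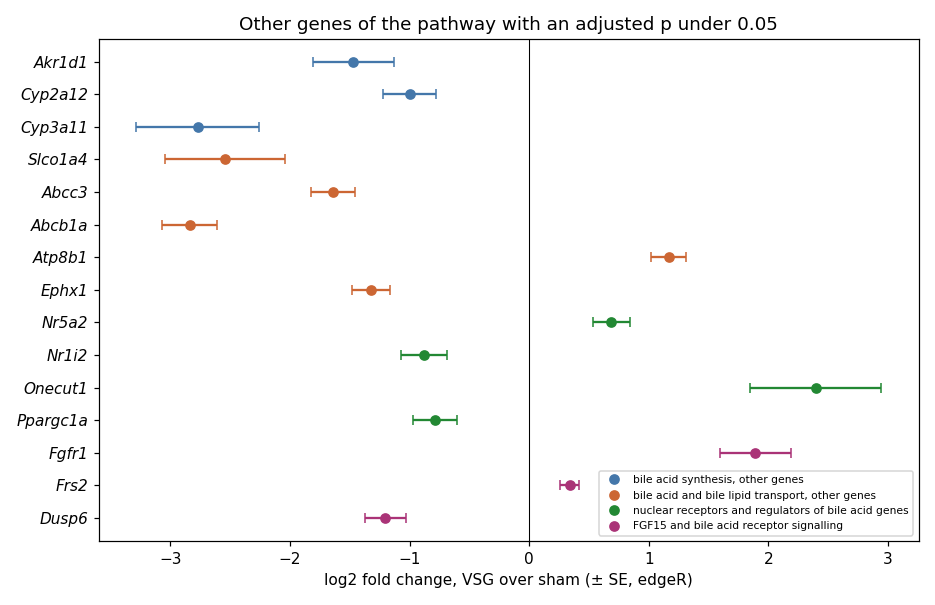
Log2 fold change, VSG over sham, with standard error (edgeR, n = 3 per group) for the 15 other genes of the pathway with an adjusted p under 0.05, coloured by list. The 3 synthesis genes and 4 of 5 transport genes lie below 0, and the values run from -2.84 (Abcb1a) to 2.40 (Onecut1).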

How the data were processed

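Liver RNA of 6 mice, 3 sham and 3 VSG, was compared, with groups and replicate numbers taken from the sample titles and 1 animal per library. The authors prepared strand-specific poly(A) libraries and aligned them to mm10 with STAR 2.6.0 and counted them with featureCounts (versions per the submitters' processing notes), and the deposited values are raw read counts per gene. Which annotation release was counted, whether strand was used and how multi-mapping reads were treated is not given in the sources used here. Reads of near-identical family members (the Cyp2a, Cyp3a, Slco1a and Abcb1 genes) may be split. The exon length in the deposited table, which is no measurement of a sample, entered only FPKM. Of 55385 identifiers, 55144 matched GENCODE M21 (GRCm38), 54487 with the same version.

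The test on the counts was that of edgeR 4.0.16 (R 4.3.3): filterByExpr (minimum count 10, minimum total 15), TMM factors, a quasi-likelihood fit with group as the only term, and Benjamini-Hochberg adjustment over 14454 genes. Where no other tool is named, an adjusted p is from edgeR. The standard error is the log2 fold change divided by the root of F. With 3 against 3 libraries the smallest exact permutation p is 0.1. Alternatives were DESeq2 1.42.0, limma-voom and limma on log2(FPKM + 1) (limma 3.58.1), RLE factors, total counts, 2 other filters, a prior count set to 2, and fits without each library. The fit was tested on simulated counts, drawn independently for each gene. They hold no effect shared across a library, so that test does not cover libraries that stand apart. The members and gene lists were chosen with earlier results of these data known. Named genes were all 10 members, up to 6 genes per pathway list past the threshold by size of change, Nr1h4, Nr0b2, Fgf15, Slc51b and Slco1b2, and the 3 genes nearest to Cyp7a1. Genes named from the marker lists, and Slco1a1, were chosen after their values were seen. Of the listed symbols, Stard1 was not matched and is not analysed here. A count of 3 is the limit that 0 counts allow. It speaks for counting error alone, as no molecular identifiers are described that would remove PCR copies.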

Additional observations from a re-analysis of the deposited data

How the results depend on the processing

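The number of members past the threshold was 1 with edgeR. It was 4 with DESeq2 (against 22.8% of all genes, with Fgfr4, Cyp7b1, Cyp7a1 and Cyp8b1), 3 without a low-count filter, 2 without sham replicate 2 and VSG replicate 4 together (chosen after seeing the data), and 0 to 2 when 1 library was left out. It was 0 when sham replicate 2 or 3 or VSG replicate 6 was the one left out. Of the other pathway genes, 15 passed, 23 with DESeq2, 11 without that pair of libraries and 2 to 17 when 1 library was left out (7 without sham replicate 2, 2 without sham replicate 3, 3 without VSG replicate 6). Over all genes 2118 passed, 3288 with DESeq2, 833 without both libraries, and 159 to 2732 when 1 was left out. The cause was not tested, other than that fewer libraries were fitted.

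Of the members, Cyp7a1, Cyp8b1, Cyp7b1, Baat, Abcb11, Abcb4 and Fgfr4 kept their direction in all 15 alternatives. Klb turned to -0.10 with total counts, -0.0094 without a filter, -0.030 with limma-voom and -0.023 on log2(FPKM + 1), and ran from -0.30 to 0.25 when 1 library was left out. Slc10a1 ran from -0.64 to 0.21 and Cyp27a1 from -0.54 to 0.012 in those fits, and without both libraries Slc10a1 was at 0.55, Cyp27a1 at 0.13 and Slco1b2 at 0.11. On log2(FPKM + 1), which understates low genes, Abcb1a was at -1.69 and Fgfr1 at 1.25 (edgeR -2.84 and 1.89). The ratios of the 6 pairs kept their direction without any 1 library and on log2(FPKM + 1). No paired analysis was possible because the replicate numbers are not shared between the groups. Counts of the members were between 390 and 18849 per library. Neither depth nor the number of animals was varied apart from leaving libraries out.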
